A study of Mus musculus with 2 samples.

Results

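The class I antigen processing machinery was followed here through 10 genes of the 25810 named genes in the deposited tables. The choice was made with earlier results of these data known. They were chosen by name and by role: the classical heavy chains *H2-D1* and *H2-K1* with their light chain *B2m*, the peptide transporter subunits *Tap1* and *Tap2* with the tapasin gene *Tapbp*, the immunoproteasome subunits *Psmb8*, *Psmb9* and *Psmb10*, and the class I transactivator *Nlrc5*. RNA-Seq was done on mammary epithelial cells (MECs) of wild type (WT) and *Igfbp7*-/- mice at lactation day 3, with 1 library per genotype. The *Igfbp7*-/- animals carry a germline deletion of the first coding exon of *Igfbp7*. Cells of the inguinal glands were depleted with magnetic beads of cells carrying CD45, Ter119 and a further marker, which the sample labels give as CD35 and the methods as CD31. The labels give the strain of both groups as C57BL/6, whereas the methods describe a CD1 background, and the number of animals behind each library is not given in the sources used here.

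Class I molecules display peptides from inside the cell to CD8+ T cells. The proteasome cuts proteins into peptides, the Tap1-Tap2 transporter moves these into the endoplasmic reticulum, and tapasin holds the empty class I molecule, a heavy chain paired with beta-2 microglobulin, next to the transporter until a peptide is bound. Interferons raise most of these genes together, through Irf factors and through Nlrc5, and replace the standard catalytic proteasome subunits with the immunosubunits. Most nucleated cells, luminal epithelium included, express class I, and leukocytes and endothelial cells express it strongly.

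With 1 library per genotype there is no replicate spread, so no test was made and every difference is one between 2 libraries. Intervals are exact 95% intervals on read pairs and cover counting error only. RPM is the deposited count scaled to the library total and serves to compare a gene between libraries, and RPKM, the RPM per kilobase of gene length, is used between genes. The RPM denominators were 34327854 reads in WT and 35016847 in *Igfbp7*-/-, of which 82.3% and 72.3% lay on listed genes, and 3 reads corresponded to 0.0874 and 0.0857 RPM. *Igfbp7* itself was at 152.2 RPM in WT and at 1.06 RPM in *Igfbp7*-/-. Among epithelial markers, the casein gene *Csn2* was at 53087 and 19970 RPM and the luminal keratin *Krt8* at 268.1 and 789.0 RPM, so secretory epithelium was present in both libraries.

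The lactation day 3 library of *Igfbp7*-/- had lower levels of 9 of the 10 class I genes than the WT library, and a higher level of 1, *H2-D1*. All 10 had at least 1 RPM in both libraries. A gene was counted as lower or higher when the RPM differed by at least 1.5 times. By this rule 23% were lower and 21.4% were higher among the 14026 genes that reached 1 RPM in either library. Log2 ratios are of *Igfbp7*-/- to WT, with 0.1 RPM added to each level. Their median was -1.84 over the 10 genes, against 0.03 over all 14026. Because the 10 genes were chosen with earlier results of these data known, these contrasts are descriptions only. Of the 10 genes, 8 were lower and 1 higher by at least 2 times, against 13.8% lower and 9.64% higher among all 14026.

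**Figure D1:**
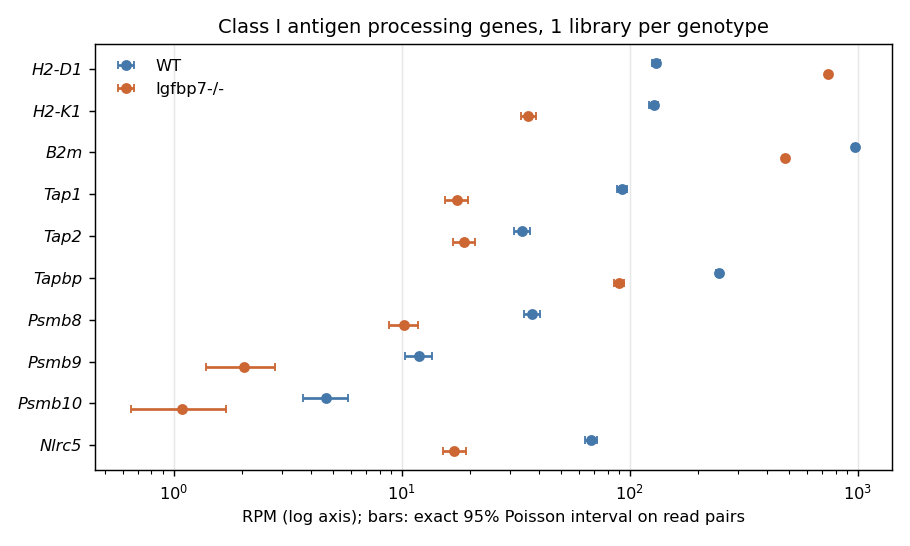
Level of each of the 10 class I genes in RPM (log axis) in the WT (blue) and *Igfbp7*-/- (orange) libraries, with exact 95% Poisson intervals on read pairs. The orange point lies to the left of the blue one for 9 genes, from *B2m* at 970.1 and 479.7 RPM to *Psmb10* at 4.66 and 1.09 RPM, and to the right for *H2-D1* alone.

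The 2 classical heavy chains differed in opposite directions. *H2-D1*, which encodes the heavy chain that presents peptide at the D locus, had 4488 reads in WT and 25947 in *Igfbp7*-/-. This was 130.7 and 741.0 RPM, a log2 ratio of 2.50 (95% interval 2.44 to 2.57) or 5.66-fold higher. Only 103 of the 14026 genes had a higher ratio. *H2-K1*, the heavy chain gene of the K locus, had 4370 reads in WT and 1260 in *Igfbp7*-/-. This was 127.3 and 36.0 RPM, a log2 ratio of -1.82 (-1.95 to -1.69) or 3.53-fold lower.

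*B2m*, the light chain that every class I heavy chain needs to reach the cell surface, was the most abundant of the 10 genes per length in both libraries. It had 33301 reads in WT and 16796 in *Igfbp7*-/-. The levels were 970.1 and 479.7 RPM, a log2 ratio of -1.02 (-1.05 to -0.98). The 2 heavy chains stood level per length in WT, with *H2-K1* at 76.3 RPKM and *H2-D1* at 75.3 RPKM. In *Igfbp7*-/- they were at 21.6 and 426.8 RPKM, so that in the order of the 10 genes by RPKM *H2-K1* stood at place 3 and *H2-D1* at place 4 in WT, and at places 4 and 2 in *Igfbp7*-/-.

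Ratios inside a library do not depend on how the libraries were scaled. *H2-D1* was at 6.66% of the *B2m* level per length in WT and at 76.4% in *Igfbp7*-/-, a log2 change of 3.52 (3.44 to 3.59). *H2-K1* went from 6.75% to 3.86% of *B2m*, a log2 change of -0.81 (-0.94 to -0.67). The level of *H2-K1* was thus lower in *Igfbp7*-/- also against the light chain it pairs with, while *H2-D1* per *B2m* was 11.5-fold higher. *H2-D1* over *H2-K1* changed from 0.987 to 19.8 in RPKM.

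Reads of class I chains are hard to place, and the authors' handling of reads that match several genes is not given in the sources used here. The coding sequences of *H2-D1* and *H2-K1* in the NCBIM37 (mm9) annotation were identical at 89.0% of bases, counted over the longer of the 2, the closest match to *H2-D1* among the 19 chains aligned. The longest coding stretch that they share is printed here because a read inside it fits both genes. It has 91 bases in exon 4 of both, at chr17:35402856-35402946 on the plus strand in *H2-D1* and at chr17:34134288-34134378 on the minus strand in *H2-K1*, and the same bases also lie in *H2-Q2*, *H2-Q6* and *H2-Q7*.
H2-D1 and H2-K1, shared: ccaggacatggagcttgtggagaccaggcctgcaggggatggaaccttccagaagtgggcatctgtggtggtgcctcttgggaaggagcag

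The reads were 75 and 35 bases long, and up to 3 mismatches were allowed. Of the 75-base windows of the *H2-D1* transcript, 28.6% lay within 3 mismatches of a window of at least 1 of 19 other class I chains, and of the 35-base windows 74.6% did. For *H2-K1* the shares were 31.9% and 65.4%. Exact sharing with the transcripts of any other gene was 7.84% and 1.57% of the 75-base windows of *H2-D1* and *H2-K1*. No 75-base window of *B2m*, *Tap1*, *Tap2*, *Tapbp*, *Psmb8*, *Psmb9* or *Psmb10* was shared exactly with another gene, and *Nlrc5* has no entry among the protein-coding transcripts of this annotation. The levels of the 2 heavy chains are therefore less certain than those of the other genes. Class I heavy chain genes also differ between mouse strains, reads were mapped to a single reference, and the labels and methods give different strains. Which H2 alleles the libraries carry was not tested, and this limit holds for every heavy chain row, the ratios of *H2-D1* and *H2-K1* to *B2m* included.

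The other class I chain genes were read beside *H2-D1* for this reason. The 21 listed heavy chain rows had a summed level of 538.7 RPM in WT, against 919.9 RPM in *Igfbp7*-/-. Without *H2-D1* the other 20 summed to 408.0 and 178.9 RPM, 2.28-fold lower in *Igfbp7*-/-. The *H2-D1* level was higher by 610.2 RPM, and the 20 other rows together were lower by 229.1 RPM. A further class I-like row, *H2-Gs10*, picked after its values were seen, was lower by 195.9 RPM. Together these came to 425.0 RPM. *H2-Q3*, *H2-Q4*, *H2-Q5*, *H2-Q7* and *H2-L* have no row among the named genes, so these sums do not cover every class I chain. The coding sequence of *H2-Q4* was identical to that of *H2-D1* at 88.4% of bases. A comparison of the sums with the *H2-D1* difference therefore cannot show how reads were assigned. The part of read assignment in the *H2-D1* level was not tested.

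**Figure D2:**
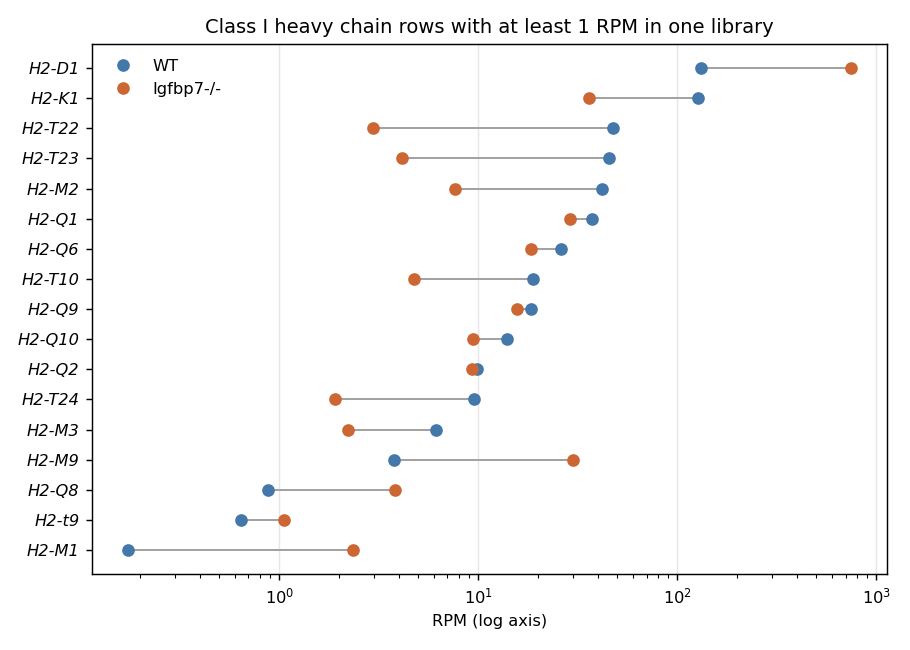
Level in RPM (log axis) of the class I heavy chain rows with at least 1 RPM in WT (blue) or *Igfbp7*-/- (orange), ordered by the WT level. *H2-D1* at the top reaches 741.0 RPM in *Igfbp7*-/-, while *H2-K1*, *H2-T22*, *H2-T23* and *H2-M2* are lower there.

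Among 20 non-classical class I genes that reached 1 RPM, 8 were lower in *Igfbp7*-/- and 4 were higher, and the median log2 ratio was -0.50. Of the 4 higher rows, *H2-M1*, *H2-Q8* and *H2-t9* reached 1 RPM in *Igfbp7*-/- only, so that of the 17 genes with 1 RPM in both libraries 8 were lower and 1 was higher. With 10 RPM in either library, 4 of 10 were lower and 1 was higher. Among all genes with 1 RPM in either library, 23% were lower and 21.4% higher, so the 4 higher of 20 were near that share. With 1 RPM in both libraries the shares of all genes were 20.1% and 19.9%. With 10 RPM in either they were 20.4% and 20.7%. *H2-T23*, which encodes the Qa-1 molecule that NK cells read through their inhibitory receptors, was at 45.4 RPM in WT and 4.14 RPM in *Igfbp7*-/-. *H2-T22*, a ligand of some gamma delta T cell receptors, was at 47.4 and 2.97 RPM. *H2-M2* was at 41.6 and 7.68 RPM. *H2-M9* was higher, at 3.79 and 30.1 RPM, and the other 3 higher rows stayed under 4 RPM in both libraries. *H2-D1* was therefore not the only heavy chain row with a higher level, but it was the only 1 with over 100 RPM.

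The 250 bases before the RefSeq start of *H2-D1* and *H2-K1* (GRCm38.p6, matched to NCBIM37) held the same short sequence blocks. A stretch of 30 bases is shown for each because these heavy chains differed in opposite directions, and a stretch of *B2m* for comparison. The capitals mark the letters GGGATTCCC, the core of the kappaB enhancer of class I genes, and AANNGAAA, the core of sites bound by Irf factors. Both were searched on both strands. The stretches lie at chr17:35399868-35399897 on the plus strand, chr17:34137374-34137403 on the minus strand and chr2:121973275-121973304 on the plus strand.
H2-D1: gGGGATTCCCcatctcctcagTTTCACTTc
H2-K1: gGGGATTCCCcatctccacagTTTCACTTc
B2m: taagaacatgaAACTGAAAatgggaaagtc

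The *H2-D1* and *H2-K1* stretches were identical at 29 of 30 bases, but they were cut to hold the marked letters. Over the whole 250 bases, aligned, 170 were identical. Among 27025 genes, 0.311% had the GGGATTCCC letters and 21.6% the AANNGAAA letters in their 250 bases. Of the 8 class I genes with a RefSeq entry, 2 held the former (*H2-D1* and *H2-K1*) and 3 the latter (these and *B2m*). CCAAT, also searched on both strands, was in 6 of 8, against 34.5% of all genes. The CCAAT of *Tap1* and that of *Psmb9* are 1 and the same site between their starts. The letters TTCNNNGAA were in 1 of 8, *Psmb8*, against 7.18% of all genes. *H2-K1* has 2 RefSeq entries, of which the first was used. The 250 bases of *H2-D1*, *Tapbp*, *Psmb8* and *Psmb9* lie inside these genes as the NCBIM37 annotation places them. The counts therefore rest on the start that was used. The blocks are described as letters only. Both the heavy chain that was higher and the one that was lower held GGGATTCCC, AANNGAAA and CCAAT.

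The peptide transporter and tapasin were lower in all members. *Tap1*, a subunit of the heterodimeric transporter, had 3190 reads in WT and 611 in *Igfbp7*-/-. This was 92.9 and 17.4 RPM, a log2 ratio of -2.41 (-2.60 to -2.24) or 5.30-fold lower. *Tap2*, its partner, had 1161 and 658 reads.

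The *Tap2* levels were 33.8 and 18.8 RPM, a log2 ratio of -0.84 (-1.05 to -0.65), the smallest difference of the 10 genes. The functional transporter holds both subunits. *Tap1* over *Tap2* was 2.32 in RPKM in WT and 0.784 in *Igfbp7*-/-, a log2 change of -1.57 (-1.84 to -1.30). This change does not depend on gene length, whereas the 2 ratios rest on the lengths the authors used, 2.95 kb for *Tap1* and 2.49 kb for *Tap2*.

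*Tapbp*, the tapasin that bridges the transporter and the class I molecule, was the second most abundant gene per length in WT at 90.0 RPKM. It had 8499 reads in WT and 3134 in *Igfbp7*-/-, or 247.6 and 89.5 RPM, a log2 ratio of -1.47 (-1.55 to -1.38). Its relative *Tapbpl*, which edits peptides away from the transporter, was at 14.7 and 6.28 RPM. *Tapbpl* was the only 1 of 10 listed loading chaperones past 1.5 times, and the list, with calreticulin, calnexin and *Pdia3*, had a median log2 ratio of -0.11.

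**Figure D3:**
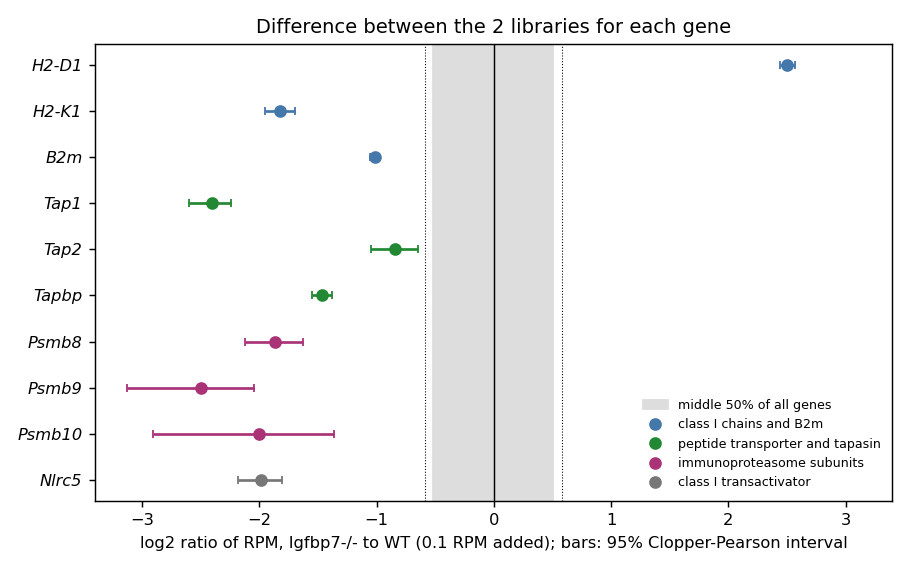
Log2 ratio of RPM, *Igfbp7*-/- to WT, for each of the 10 genes, with 0.1 RPM added to each level and 95% Clopper-Pearson intervals on read pairs; the grey band spans the middle of all 14026 genes from -0.52 to 0.51, and dotted lines mark 1.5 times. *H2-D1* lies at 2.50 and the other 9 genes between -2.49 and -0.84, all outside the band.

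The 3 immunosubunits were lower, and the standard subunits that they replace differed by less than 1.5 times. *Psmb8* (beta5i) had 1285 reads in WT and 358 in *Igfbp7*-/-, or 37.4 and 10.2 RPM, a log2 ratio of -1.86 (-2.12 to -1.63). *Psmb9* (beta1i) had 408 and 71 reads, or 11.9 and 2.03 RPM, a log2 ratio of -2.49 (-3.13 to -2.05). This was the lowest ratio of the 10 genes, and 302 of the 14026 genes were lower still.

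*Psmb10* (beta2i) was the least abundant of the 10 genes, with 160 reads in WT and 38 in *Igfbp7*-/-. Its levels were 4.66 RPM (3.70 to 5.80) and 1.09 RPM (0.653 to 1.69), and its log2 ratio of -2.01 had the widest interval, -2.91 to -1.37. The intervals of the 3 immunosubunits overlap, and the differences among their ratios were not tested.

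Each immunosubunit was then set against its standard counterpart inside a library. *Psmb9* over *Psmb6* was 0.617 in RPKM in WT and 0.112 in *Igfbp7*-/-, a log2 change of -2.46 (-3.08 to -1.92). *Psmb8* over *Psmb5* was 12.0 and 3.86, a log2 change of -1.64 (-2.39 to -0.87). *Psmb10* over *Psmb7* was 0.0594 and 0.0187, a log2 change of -1.67 (-2.48 to -0.91). All 3 ratios were lower in *Igfbp7*-/-, and the 3 immunosubunits made up 35.7% of the summed catalytic RPKM, with the authors' gene lengths, in WT and 14.3% in *Igfbp7*-/-. The standard subunits themselves were at 2.21 and 1.88 RPM for *Psmb5*, 24.8 and 23.3 RPM for *Psmb6*, and 59.9 and 44.2 RPM for *Psmb7*. *Psmb5* had only 76 reads in WT and 66 in *Igfbp7*-/-. Per length it was at 2.54 and 2.16 RPKM, against 23.9 and 22.5 for *Psmb6* and 61.8 and 45.7 for *Psmb7*. The size of *Psmb8* over *Psmb5* and the summed shares rest on these uneven rows and are no measure of proteasome composition.

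**Figure D4:**
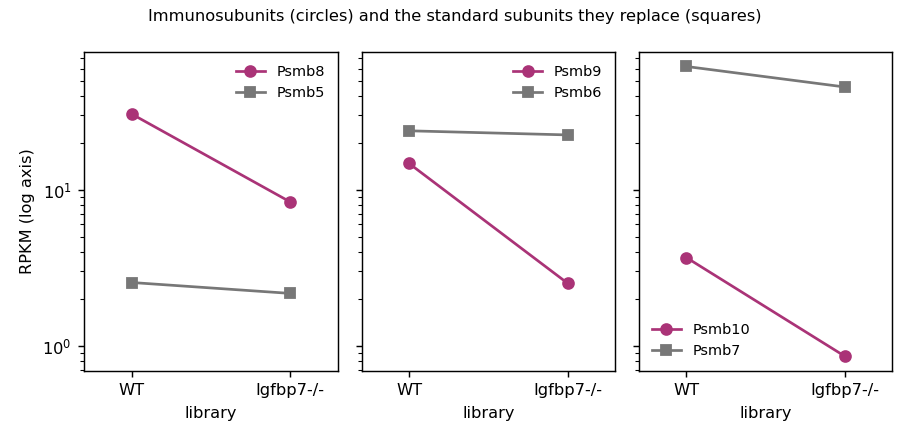
RPKM (log axis) of the 3 immunosubunits (circles) and the standard catalytic subunits they replace (squares) in the WT and *Igfbp7*-/- libraries, 1 panel per pair. The circles drop from WT to *Igfbp7*-/- in each panel, from 0.617 to 0.112 of *Psmb6* for *Psmb9*, while the squares stay within 1.5 times.

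The remaining proteasome genes differed less. Of 35 other 20S and 19S subunits, 3 were lower, 1 was higher and 31 were within 1.5 times, with a median log2 ratio of -0.07. The lower ones were the 20S genes *Psmb2* (34.3 and 21.1 RPM) and *Psma2* (32.0 and 21.1 RPM) and the 19S gene *Psmd11* (66.3 and 38.1 RPM), and the higher one was *Psmd8* (116.5 and 181.9 RPM). The interferon-inducible proteasome activator, which opens the 20S gate, was lower in both of its subunits. *Psme1* was at 33.4 and 15.6 RPM and *Psme2* at 16.5 and 4.68 RPM. They were the only 2 lower genes of 9 activator and assembly genes, of which none was higher. Lower genes thus made up 22.2% of that list, close to the 23% of all 14026 genes. Of 9 peptide trimming enzymes, *Thop1* was lower (10.02 and 6.48 RPM) and the aminopeptidase *Lnpep* higher (43.8 and 94.4 RPM), with 11.1% lower. *Psmb2*, *Psma2* and *Thop1* came within 1.5 times when counts were scaled to the sum over listed genes, while *Psme1* and *Psme2* stayed lower.

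*Nlrc5*, which activates the promoters of class I genes, had 2326 reads in WT and 597 in *Igfbp7*-/-. The levels were 67.8 and 17.05 RPM, a log2 ratio of -1.98 (-2.18 to -1.81) or 3.96-fold lower. Of 23 listed regulators of class I genes, 10 were lower and 1 was higher, with a median log2 ratio of -0.33. Scaled to the sum over listed genes, 7 were lower and 3 higher, against 18.4% lower and 30.3% higher among all genes. Lower regulators included *Irf8* (29.1 and 6.54 RPM), *Irf9* (117.7 and 46.9 RPM) and *Stat2* (146.8 and 62.0 RPM), factors of interferon signalling. The higher one was *Nfya* (24.3 and 42.4 RPM). *Irf3* and the interferon gamma receptor gene *Ifngr1* were within 1.5 times, with log2 ratios of 0.54 and 0.41.

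Of 28 interferon response genes, 26 were lower and 1 was higher, with a median log2 ratio of -2.48. The T cell chemokine *Cxcl9*, at 215.9 and 10.2 RPM, had the largest difference. All 10 class II presentation genes with at least 1 RPM were lower, with a median of -2.93, among them the invariant chain *Cd74* at 526.6 and 69.7 RPM. Of these, 4 reached 1 RPM in WT only, and all 6 with 1 RPM in both libraries were lower, as were all 5 with 10 RPM in either. The medians of both lists lay under the -1.84 of the class I genes, and the difference between the lists was not tested.

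**Figure D5:**
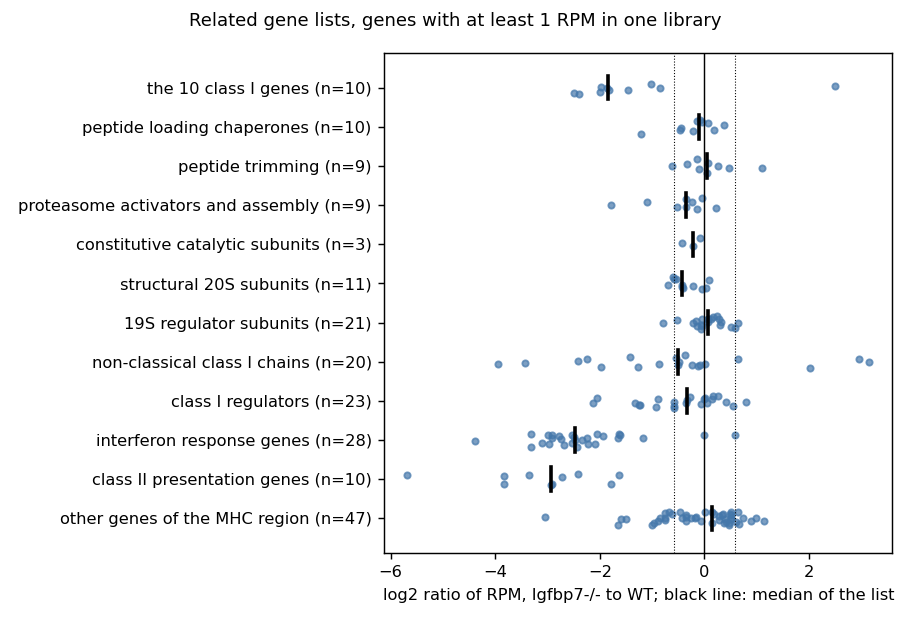
Log2 ratio of RPM, *Igfbp7*-/- to WT, for the 10 class I genes and for each related list, with 1 point per gene with at least 1 RPM in either library, the median as a black line and 1.5 times as dotted lines. The medians of the class I genes (-1.84), interferon response genes (-2.48) and class II genes (-2.93) lie to the left, and those of the chaperone (-0.11), trimming (0.05) and 19S lists (0.07) near 0.

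Position in the genome was compared as well, since 7 of the 10 genes lie in the major histocompatibility complex on chromosome 17. *Psmb9*, *Tap1*, *Psmb8* and *Tap2* form a cluster of 34.3 kb at chr17:34318932-34353266 (NCBIM37). *Psmb9* and *Tap1* point away from each other, with 225 bases between their RefSeq starts, and had the 2 lowest ratios, -2.49 and -2.41. *Tap2*, in the same cluster, was at -0.84. In the NCBIM37 annotation, unlike the RefSeq starts, the 2 genes overlap on opposite strands, with *Psmb9* reaching to 34324697 and *Tap1* beginning at 34324498. The library kit keeps strand, and whether the counting used it is not given in the sources used here.

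*H2-K1* lies 181.7 kb before this cluster, at chr17:34132962-34137278 on the minus strand. *H2-D1* lies 1046 kb after it, at chr17:35399675-35404444 on the plus strand. *Tapbp* is at chr17:34052844-34066235. Of 47 other genes of the region, 13 were lower and 7 higher, 27.7% lower against the background of 23%, with a median log2 ratio of 0.14. Scaled to the sum over listed genes, 8 of the 47 were lower and 15 higher. By that scaling 18.4% of all 14026 genes were lower and 30.3% higher. The class I genes outside the region, *B2m* on chromosome 2 and *Nlrc5* and *Psmb10* on chromosome 8, were lower as well.

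Leukocytes and endothelial cells are rich in class I, and their markers were lower in *Igfbp7*-/-. Of 33 leukocyte markers with at least 1 RPM, 27 were lower and 1 was higher, and the sum over the 37 found was 434.7 RPM in WT against 134.2 RPM in *Igfbp7*-/-, 3.24-fold lower, with none at 0. The pan-leukocyte marker *Ptprc*, which encodes the CD45 used for depletion, was at 43.5 and 18.1 RPM. With 1 RPM in both libraries, a minimum set after seeing the data, 16 of 22 leukocyte markers were lower and 1 was higher. Among all 12651 genes with that minimum, 20.1% were lower and 19.9% higher. The Langerhans cell marker *Cd207* was at 30.3 and 0.742 RPM. Of 7 endothelial markers, 6 were lower, and their sum was 1213 and 388.5 RPM, with none at 0.

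The leukocyte sum was lower by more than *B2m* (2.02-fold), *Tap2* (1.80-fold) and *Tapbp* (2.76-fold), and by less than the other 6 lower genes, which ranged from 3.53-fold for *H2-K1* to 5.63-fold for *Psmb9*. The 5 pan-leukocyte markers summed to 156.6 and 50.2 RPM, a log2 ratio of -1.64. The log2 ratio of the sums was -1.37 for macrophage, -1.36 for T cell and -1.30 for NK cell markers. It was -2.42 for dendritic and Langerhans markers and -3.50 for B and plasma cell markers. The order of the class I genes against leukocyte markers thus depends on the list that is summed. Basal markers were lower in 5 of 6 as well. The part of these cells in the class I levels was not tested, and in bulk RNA fewer cells of a type and less RNA per cell cannot be told apart. *H2-D1* had the opposite direction to these markers.

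By cell type, macrophage markers had 6 lower of 8, dendritic and Langerhans markers 6 of 6, B and plasma cell markers 5 of 5, T cell markers 3 lower and 1 higher of 5, and NK cell markers 2 of 4. Alveolar luminal markers had 3 lower and 2 higher of 6, fibroblast markers 3 lower of 5, adipocyte markers 1 lower and 1 higher of 2, and erythroid markers 0 of 3. All these counts take markers with 1 RPM in either library, where 23% of all 14026 genes were lower and 21.4% higher. A marker that reached 1 RPM in WT only could not be counted as higher. The B and plasma cell markers summed to 36.8 RPM in WT and only 3.17 RPM in *Igfbp7*-/-.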

How the data were processed

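Poly(A) RNA of lineage-depleted MECs, 1 library per genotype, was sequenced on a SOLiD instrument as paired ends. Per the labels, the authors aligned reads to mm9 with Bowtie 0.12.3 and used SAMtools 0.1.15; their methods name a GeneSifter pipeline and a human build, although the tables list mouse genes. Per gene, the authors deposited an unnormalized count of reads, an RPM (the count scaled to a fixed library total) and an RPKM (RPM per kilobase, missing for 733 rows). Rows without a gene symbol, 50 per table, held 0.0408% and 0.0484% of reads and were left out. Groups were taken from the labels.

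Ratios used the deposited RPM plus 0.1 RPM, genes with at least 1 RPM in either library, and a threshold of 1.5. With no replicates no test was run. Ratio intervals are Clopper-Pearson intervals on read pairs (count divided by 2, as 75.8% and 74.1% of low counts were even), level intervals are Poisson, and changes of within-library ratios have exact conditional odds ratio intervals; all leave out the 0.1 RPM and cover counting error only. Alternatives were pseudocounts of 1 and 0.01 RPM, RPKM, other scalings (edgeR 4.0.16 TMM, DESeq2 1.42.0 size factors, the sum of listed genes, the sum without the 20 most abundant genes, centring), other minimums and a threshold of 2. Python 3.11.15, scipy 1.17.1 and R 4.3.3 were used, and the code was tested on simulated data. Transcript windows came from the NCBIM37 annotation and promoters from RefSeq.

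The members and lists were chosen with earlier results of these data known. The genes named are the 10 members, *Psmb5*, *Psmb6*, *Psmb7*, *Psme1*, *Psme2*, cell type markers, and in each list the up to 4 genes with the largest absolute log2 ratio among those past 1.5 times with at least 10 RPM in either library. Not every gene meeting the rule is printed. *H2-Gs10*, *H2-M1*, *H2-Q8* and *H2-t9* were named after their values were seen. So were the regulators *Rfx5*, *Nfyb*, *Rfxap*, *Nfya*, *Irf3* and *Ifngr1*.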

Additional observations from a re-analysis of the deposited data

How the results depend on the processing

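The counts of 9 lower and 1 higher class I genes held under all alternatives run but 2: with a minimum of 10 RPM *Psmb10* dropped out and 8 of 9 were lower, and at a threshold of 2 *Tap2* was within it and 8 were lower. No log2 ratio of the 10 genes changed sign under the 8 alternatives that recompute it. *H2-D1* ranged from 2.47 to 2.69, *Tap2* from -0.88 to -0.66 and *Psmb10* from -2.09 to -1.44. The median of the 10 genes was -1.62 with 1 RPM added and -1.66 after scaling to the sum over listed genes. Of 190 genes in the related lists, 73 were lower and 15 higher by 1.5 times. This became 62 lower and 28 higher after scaling to listed genes, 56 and 7 of 145 with a minimum of 10 RPM, and 55 and 5 of 190 at a threshold of 2. Scaling to listed genes moved the median of all genes by 0.19 and the split of all genes from 23% lower and 21.4% higher to 18.4% and 30.3%. No paired analysis was possible because each genotype has 1 library, and for the same reason no replicate could be left out. Depth limits *Psmb10* and *Psmb9* most, with 38 and 71 reads in *Igfbp7*-/-.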

Other observations

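Class I-like rows outside the lists above were also lower in *Igfbp7*-/-. *H2-Gs10* was at 357.1 RPM in WT and 161.2 RPM in *Igfbp7*-/-, a log2 ratio of -1.15 (95% interval -1.21 to -1.08, counting error only), and *H2-K2* at 5.71 and 0.828 RPM. Among other genes of the region on chromosome 17, the death-domain associated factor *Daxx* was at 74.9 and 23.7 RPM, and the Polycomb-associated *Phf1* at 5.94 and 13.3 RPM. Both rows were picked by the rule for named genes, whereas *H2-Gs10* and *H2-K2* were picked after their values were seen.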
